A study of Homo sapiens with 6 samples.

Results

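The cytosolic HSP70 and HSP110 family was examined in LNCaP cells, a human prostate cancer line, exposed for 6 h to 20 µM gedunin or to its solvent DMSO. Gedunin is a limonoid made by plants of the mahogany family, neem among them. The family was taken as 10 named genes, HSPA6, HSPA1A, HSPA1B, HSPA1L, HSPA4L, HSPA4, HSPH1, HSPA8, HSPA2 and HSPA14, and as all probe sets annotated to 1 of these genes alone. All 10 genes were measured, by 17 of the 22215 probe sets on the array, and a further probe set, annotated to HSPA1A and HSPA1B together, is described apart and enters no count.

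Total RNA from 3 gedunin and 3 DMSO samples, all grown in RPMI with 10% FBS and labelled as biological replicates, was hybridised to Affymetrix arrays, 1 array per sample. The labels do not say whether the replicates were separate cultures, so p-values measure only the spread between these arrays, and their number limits the precision. Values are RMA intensities, which carry no unit. Upper quartiles lay between 142 and 146 on the gedunin arrays and between 128 and 146 on the DMSO arrays.

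The array labelled DMSO 3 did not read as LNCaP cells. The summed intensity of the 8 measured of 10 listed prostate and epithelial markers was 207 on it, against 13639 to 14765 on the other 5 arrays. The summed intensity of the 8 measured of 10 listed leukocyte markers was 11818 on it, against 173 to 179 on the others, although the T cell genes CD3D and CD3E were at 20.9 and 19.3. Gedunin was therefore compared with DMSO 1 and 2 (the 5-array comparison, n = 3 and 2), DMSO 3 is shown apart, and a result that changes when DMSO 3 is counted as a control (the 6-array comparison, n = 3 and 3) is given both ways. Fold changes are log2 of gedunin over DMSO with limma's moderated standard error, and p-values were adjusted by the Benjamini-Hochberg method across all probe sets and called below 0.05. In bulk RNA, fewer cells with a transcript and less of it per cell cannot be told apart.

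HSP70 proteins bind exposed hydrophobic stretches of unfolded proteins and release them in a cycle driven by ATP. J-domain proteins bring clients and start ATP hydrolysis, and nucleotide exchange factors, among them the HSP110 proteins, open HSP70 again so that the client can leave. Some members are made at all times (HSPA8, known as HSC70, is the main one), and others are transcribed mainly under protein-damaging stress, when heat shock factor 1 is freed from chaperones, forms trimers and binds heat shock elements, repeats of GAA and TTC in alternating orientation. Inhibitors of HSP90 are known to start this response, and gedunin has been studied in comparison with them.

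These elements were sought because the members differed in how far they moved. Promoter windows of RefSeq (GRCh38.p14) covering 250 bases before to 50 after a gene start were found for 9 of the 10 members, 11 windows in all, and the promoter of HSPA14 was not analysed here. The motifs GAANNTTC and TTCNNGAA each hold a pair of repeat units and read the same on both strands. Together they occurred in 13.5% of the 35116 windows of all genes (6.77% and 7.74% singly). A motif of 3 units was taken as these 2 motifs in either order with the middle unit shared, so that it contains both and covers both strands, and it occurred in 0.49% of the windows. Of the 9 members with windows, 6 held a motif of 2 units in any window, and 2 of these, HSPA6 and HSPA8, held the motif of 3 units. These counts are by gene while the shares above are by window, so the 2 are not directly comparable. HSPA4L counts through only the second of its windows, and HSPA1A and HSPA1L count through the same letters. The stretches below show the element nearest to the start of the inducible HSP70 genes, the divergent neighbour of HSPA1A and the constitutive HSPA8, each read 5′ to 3′ on the gene's strand, with capitals marking the motif.
HSPA6 (chr1:161524442-161524501, plus strand): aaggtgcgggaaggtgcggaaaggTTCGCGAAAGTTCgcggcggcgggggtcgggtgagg
HSPA1A (chr6:31815413-31815472, plus strand): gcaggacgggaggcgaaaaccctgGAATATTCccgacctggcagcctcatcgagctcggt
HSPA1B (chr6:31827609-31827668, plus strand): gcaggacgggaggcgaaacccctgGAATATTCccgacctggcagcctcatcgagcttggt
HSPA1L (chr6:31815409-31815468, minus strand): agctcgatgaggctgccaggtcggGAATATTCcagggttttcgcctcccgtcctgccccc
HSPA8 (chr11:123062166-123062195, minus strand): ccccTTCTGGAAGGTTCtaagatagggtat

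In HSPA6 the motif of 3 units began 74 bases before the start, and a further GAANNTTC began 180 bases before it. In HSPA8 one motif of 3 units began 55 bases before the start and another 230 bases before it, and RefSeq extends the gene further in the 5′ direction. HSPA1A and HSPA1L are neighbours on opposite strands whose starts lie 260 bases apart, so the single GAATATTC at chr6:31815437-31815444 lay in both windows, 106 bases before the start of HSPA1A and 161 bases before that of HSPA1L. The 250 bases before the starts of HSPA1A and HSPA1B were 93.6% identical (235 of 251 aligned columns), and HSPA1B held its GAATATTC 105 bases before its start. HSPA4L held a TTCNNGAA, 170 bases before the second of its 3 starts. The windows of HSPH1, HSPA4 and HSPA2 held no exact match to these motifs. Only exact matches inside the windows were sought, so units with a changed letter and elements elsewhere were not counted for any member. RefSeq starts HSPA2 further in the 5′ direction, at chr14:64535905, so its window at chr14:64540491-64540790 lies inside the gene. A match is a run of letters, and binding was not measured.

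Gedunin raised most of the family. In the 5-array comparison 16 of the 17 probe sets rose and 0 fell, while 7.37% of all probe sets rose and 7.91% fell. By gene, each taken at its probe set with the highest mean, 9 of the 10 rose and 0 fell, while 8.24% of all 12165 genes rose and 9.36% fell. The median log2 fold change was 1.12 over the 17 probe sets and -0.012 over all probe sets. All 3 gedunin arrays lay above both DMSO arrays for 17 of the 17 probe sets, as they did for 19.3% of all probe sets. In the 6-array comparison 11 of the 17 probe sets rose (1.13% of all did) and 5 of the 10 genes (1.31% of all genes), with 0 falling.

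**Figure D1:**
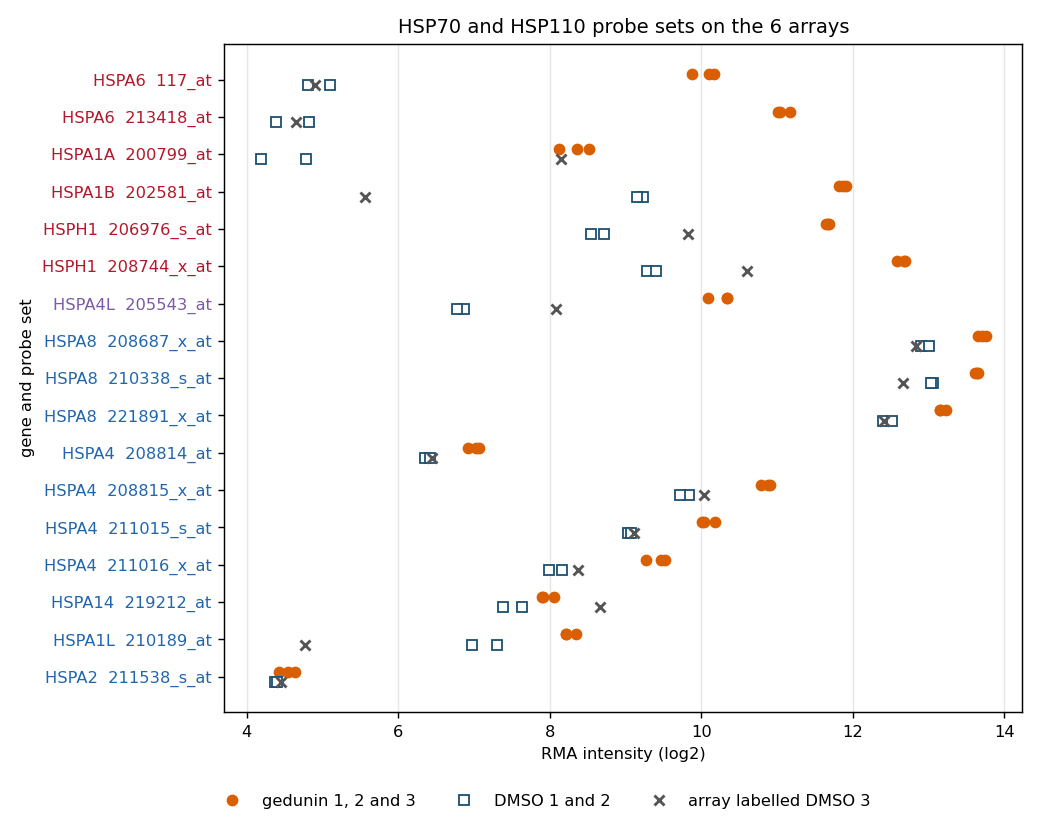
Log2 RMA intensity (x axis) of the 17 probe sets of the family (rows; red names are inducible members, blue constitutive, purple HSPA4L) on the gedunin arrays (filled circles), on DMSO 1 and 2 (open squares) and on the array labelled DMSO 3 (crosses). The gedunin circles lie right of both squares in every row, while the cross lies near the gedunin values for HSPA1A and far left of the squares for HSPA1B and HSPA1L.

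HSPA6, known as HSP70B′, is a human HSP70 that is strictly stress-inducible in most cells. Its probe set 213418_at read 2300.4, 2073 and 2109 under gedunin, against 28.2 and 20.9 on DMSO 1 and 2, and 25.04 on DMSO 3. The DMSO arrays were all below the array medians of 31.7 to 32.0, and every gedunin array was far above. The log2 fold change was 6.47 ± 0.13 (limma adjusted p = 6.42e-09), an 88.8-fold rise and the largest of all 22215 probe sets. The other probe set, 117_at, read 1156, 1096 and 944 with gedunin and 34.1 and 28.1 on DMSO 1 and 2, with 29.98 on DMSO 3, and rose by 5.10 ± 0.12 (limma adjusted p = 7.75e-09), which ranked 3 among all probe sets. HSPA6 was the inducible member whose DMSO 3 value fell between those of DMSO 1 and 2 on both of its probe sets. RMA compresses differences at dim intensities, so folds from such levels may be understated. They also depend on the scale. On log2 of the value plus 16, which shrinks folds from low levels, the rises were 5.75 (213418_at) and 4.52 (117_at).

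HSPA1A and HSPA1B encode the main inducible HSP70, known as HSP72, from a pair of near-identical genes, so a probe set of either may read both. HSPA1A (200799_at) read 329.98, 366 and 279 on the gedunin arrays, against 18.2 and 27.4 on DMSO 1 and 2. It rose by 3.86 ± 0.17 (limma adjusted p = 3.88e-07), again from a level below the array median. DMSO 3 read 283, between the lowest and the highest gedunin array, so with that array counted as a control the value was 2.63 ± 1.05 and was not called (limma adjusted p = 0.419).

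HSPA1B (202581_at) read 3849, 3598 and 3758 under gedunin, against 601 and 566 on DMSO 1 and 2. The rise was 2.68 ± 0.09 (limma adjusted p = 5.15e-08), here from a level in the top 10% of the array. DMSO 3 read 47.1, a 12.4-fold lower level than that of DMSO 1 and 2, so this gene moved on DMSO 3 in the direction opposite to HSPA1A. The 6-array value was 3.89 ± 1.03 and was not called (limma adjusted p = 0.205).

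The probe set annotated to HSPA1A and HSPA1B together (200800_s_at) read 7879, 8690.3 and 7801 on the gedunin arrays, against 582 and 606 on DMSO 1 and 2, and 104 on DMSO 3. Its rise of 3.77 ± 0.09 (limma adjusted p = 8.22e-09) lay nearer to that of HSPA1A. Its low value on DMSO 3 had the direction of HSPA1B. How the signal divides between the copies was not tested.

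HSPH1, known as HSP105, is the stress-inducible HSP110 and serves as an exchange factor for HSP70. Its probe set 208744_x_at read 6581, 6547 and 6151 under gedunin, against 622 and 679 on DMSO 1 and 2, and 1550.2 on DMSO 3. It rose by 3.31 ± 0.09 (limma adjusted p = 1.60e-08). The second probe set, 206976_s_at, rose by 3.04 ± 0.09 (limma adjusted p = 3.43e-08), with 3219 to 3304 on the gedunin arrays, against 372 and 420.2 on DMSO 1 and 2. DMSO 3 stood above DMSO 1 and 2 and below all gedunin arrays on both probe sets, and both rises were also called with it, at 2.89 and 2.65.

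HSPA4L, known as APG-1, is another HSP110. In mouse its counterpart is known to be raised by mild heat and by osmotic stress, and it was put in neither class here. It read 1299, 1295 and 1086 on the gedunin arrays, against 116 and 109.7 on DMSO 1 and 2, and 269.9 on DMSO 3. It rose by 3.44 ± 0.10 (limma adjusted p = 3.60e-08) in the 5-array and by 3.02 ± 0.37 (limma adjusted p = 0.0318) in the 6-array comparison. The fold change lay within the range of the inducible members.

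Among the constitutive members, HSPA8 folds newly made proteins and uncoats clathrin vesicles, and its DMSO levels lay in the top 1% of each array. Its probe set 208687_x_at read 12949.8, 13402 and 13892 under gedunin, against 7647 and 8259.6 on DMSO 1 and 2, and 7297 on DMSO 3. All DMSO arrays were below all gedunin arrays, and the rise was 0.75 ± 0.09 (limma adjusted p = 3.29e-04), a 1.69-fold change. The other probe sets of HSPA8 rose by 0.59 ± 0.08 (210338_s_at, limma adjusted p = 0.00106) and 0.73 ± 0.09 (221891_x_at, limma adjusted p = 4.29e-04), and 210338_s_at was not called in the 6-array comparison (0.72, limma adjusted p = 0.0817).

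HSPA4, known as APG-2, is the constitutive HSP110. All 4 of its probe sets rose, in both comparisons. The one with the highest level, 208815_x_at, read 1765, 1923 and 1881 on the gedunin arrays, against 915 and 845 on DMSO 1 and 2, and 1052 on DMSO 3. It rose by 1.08 ± 0.09 (limma adjusted p = 3.53e-05). The remaining ones spread from 0.62 ± 0.09 on 208814_at to 1.34 ± 0.10 on 211016_x_at, with 1.03 ± 0.09 on 211015_s_at between them. On 208814_at the gedunin arrays read 121 to 134, against 81.6 and 85.5 on DMSO 1 and 2.

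HSPA1L encodes an HSP70 closely similar to HSP72 and known from the testis. It read 324, 298 and 296 under gedunin, against 126 and 158 on DMSO 1 and 2, and 27.1 on DMSO 3. It rose by 1.12 ± 0.11 (limma adjusted p = 1.14e-04) in the 5-array comparison. With DMSO 3 counted as a control the value was 1.91 ± 0.68 and was not called (limma adjusted p = 0.356). On DMSO 3 HSPA1L was 5.20-fold lower than on DMSO 1 and 2, as HSPA1B and the shared probe set were lower there. Whether its probe set also reads HSPA1A or HSPA1B was not tested.

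HSPA14, an atypical HSP70 that works with the J-domain protein DNAJC2 at the ribosome, had the smallest rise among the called members. With gedunin it read 239.9, 239 and 266, against 166 and 198 on DMSO 1 and 2, and DMSO 3 read 406. The rise of 0.45 ± 0.10 (limma adjusted p = 0.0166) was not called without DMSO 1 (0.32, limma adjusted p = 0.171) or with DMSO 3 (0.063, limma adjusted p = 0.953), where DMSO 3 lay above every gedunin array.

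HSPA2, an HSP70 of male germ cells, read 21.5, 24.8 and 23.4 on the gedunin arrays, against 20.8 and 21.1 on DMSO 1 and 2, and 21.97 on DMSO 3. These values lay below the array medians, and no detection call came with them. The value of 0.15 ± 0.09 was not called (limma adjusted p = 0.369), although the gedunin and the DMSO arrays used did not overlap.

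**Figure D2:**
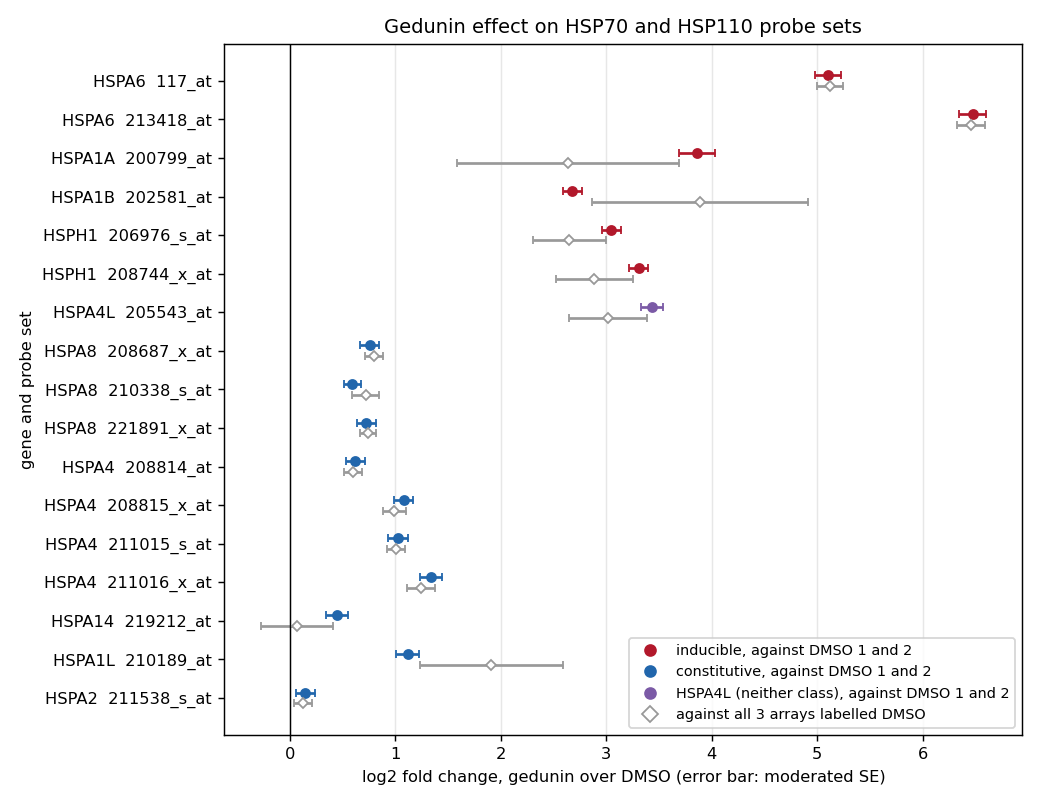
Log2 fold change of gedunin over DMSO (x axis) for each probe set of the family (rows), against DMSO 1 and 2 (filled circles, coloured by class) and against all 3 arrays labelled DMSO (open grey diamonds), with moderated standard errors as bars. Inducible members and HSPA4L lie between 2.68 and 6.47 and constitutive members between 0.15 and 1.34 against DMSO 1 and 2, and the widest bars of the 6-array comparison belong to HSPA1A, HSPA1B and HSPA1L.

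The classes, assigned from general knowledge with earlier results of these data known, are compared as a description. The 6 probe sets of the 4 inducible genes rose by 2.68 to 6.47, with a median of 3.58. The 10 probe sets of the 5 constitutive genes had 0.15 to 1.34, with a median of 0.74, and 9 of them rose. The constitutive label was also given to HSPA1L, known from the testis, and to HSPA2, an HSP70 of male germ cells. HSPA2, which set the lowest value, lay below the median on all 6 arrays, so these values do not show that LNCaP cells make it. Apart from HSPA2, the lowest constitutive value was 0.45 (HSPA14). No constitutive probe set reached the lowest inducible one in the 5-array comparison. In the 6-array comparison the medians were 3.39 and 0.77, and 4 of the 6 inducible and 6 of the 10 constitutive probe sets rose. By rank among all 22215 probe sets, the inducible ones stood at 1, 3, 11, 22, 25 and 33, HSPA4L at 19, and the constitutive ones from 189 (a probe set of HSPA4) to 4339 (HSPA2). At least 2-fold rises were called on 11 of the 17 probe sets, against 1.56% of all.

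**Figure D3:**
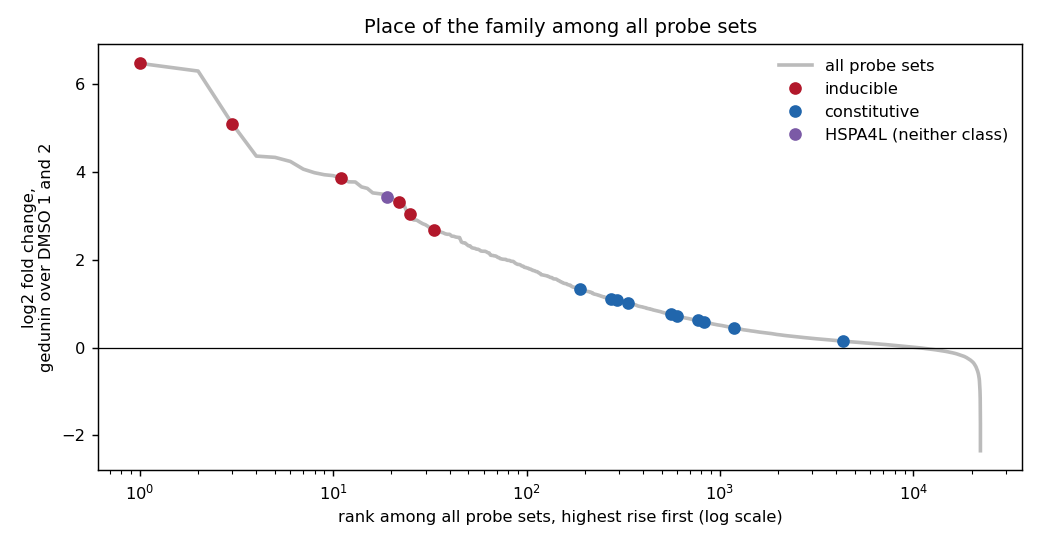
All 22215 probe sets ordered by log2 fold change of gedunin over DMSO 1 and 2 (grey line; x axis, rank on a log scale; y axis, log2 fold change), with the 17 probe sets of the family as points coloured by class. The inducible members and HSPA4L stand within the first 33 ranks and the constitutive ones from rank 189 on.

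Motifs and rises are set side by side here as a description, for a few genes. The motif of 3 units was in the window of HSPA6, which rose by 6.47, and in that of HSPA8, which rose by 0.75. HSPA1A and HSPA1L, whose windows share 1 GAATATTC, rose by 3.86 and 1.12. HSPH1, with no exact match in its window, rose by 3.31. Whether the motifs bear on these differences was not tested.

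The genes outside the family with the closest values over the 5 arrays were found by the Euclidean distance of log2 values. Each gene was set against its own mean on DMSO 1 and 2. With 2 groups, a small distance mostly reflects a fold change of similar size, and shared regulation was not tested. For HSPA6 the nearest was HMOX1 (distance 0.85), which encodes heme oxygenase 1, and the next were clearly further away, AKR1C2 at 3.67 and DDIT3 at 3.74. For HSPA1A they were ATF3 (0.33), AKR1C1 (0.53) and the J-domain gene DNAJB1 (0.63). For HSPH1 they were the J-domain gene DNAJB4 (0.14), the pseudokinase gene TRIB3 (0.16) and the exchange factor gene BAG3 (0.38). For HSPA8 they were TAB2 (0.069), the mitochondrial chaperonin gene HSPD1 (0.074) and ATF4 (0.080).

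Of 27 listed genes of HSP70 partners and relatives, 26 were measured, 16 rose and 0 fell in the 5-array comparison, with a median of 0.58 (of all genes 8.24% rose and 9.36% fell, with a median of -0.017). HSF2 was not analysed here. In the 6-array comparison 7 rose and 0 fell, and 1.31% of all genes rose. These lists were chosen with earlier results of these data known.

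Of the 10 J-domain genes, 8 rose and 0 fell in the 5-array comparison, against 8.24% and 9.36% of all genes, and 5 rose in the 6-array comparison, against 1.31% of all genes. DNAJB1, the main stress-induced partner of HSP72, read 7351, 6808 and 7381 under gedunin, against 558 and 605 on DMSO 1 and 2, and rose by 3.63 ± 0.09 on 200666_s_at (limma adjusted p = 9.23e-09). DNAJB6, known for holding back aggregation of polyglutamine proteins, read 507, 473 and 471 on the gedunin arrays, against 133 and 151 on DMSO 1 and 2, a rise of 1.77 ± 0.09. DNAJB4 rose by 3.29 ± 0.10, with 1872, 2124 and 1858 under gedunin, against 189 and 209 on DMSO 1 and 2. DNAJA1, a farnesylated partner of HSPA8, rose by 1.70 ± 0.08, and DNAJC7, a J-domain protein with tetratricopeptide repeats, by 0.99 ± 0.11. These 5 genes were called in both comparisons. DNAJC7 was called on 1 of its 2 probe sets in the 5-array comparison, and its 6-array call was close to the threshold (limma adjusted p = 0.0445). DNAJB2, which carries ubiquitin-binding motifs, rose by 1.07 ± 0.09 in the 5-array comparison and was not called in the 6-array one (1.53 ± 0.39, limma adjusted p = 0.192). DNAJA2 rose by 0.54 ± 0.10 and was not called with all 6 arrays (0.56, limma adjusted p = 0.0668) or without DMSO 1 (0.46, limma adjusted p = 0.0593). DNAJC2, the partner of HSPA14, rose by 0.49 ± 0.10 and was not called with all 6 arrays (0.35, limma adjusted p = 0.463) or without DMSO 2 (0.43, limma adjusted p = 0.0958). DNAJA4 (-0.38 ± 0.12, limma adjusted p = 0.0662) and DNAJB5 (0.033 ± 0.09) were not called.

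Of the 6 exchange factor genes outside the HSP110 group, 2 rose and 0 fell, against 8.24% and 9.36% of all genes. BAG3, which links HSP70 to autophagy, rose by 3.51 ± 0.09 (limma adjusted p = 9.23e-09). BAG2, an inhibitor of the ligase CHIP, rose by 1.38 ± 0.11 (limma adjusted p = 3.22e-05). BAG1 (0.0080 ± 0.11), BAG4 (-0.15 ± 0.14), BAG5 (-0.12 ± 0.10) and HSPBP1 (-0.20 ± 0.09) were not called. BAG2 read 155, 168 and 139 under gedunin, against 64.8 and 53.8 on DMSO 1 and 2, and 199.5 on DMSO 3. Neither BAG2 nor BAG3 was called in the 6-array comparison (0.79 and 4.42, limma adjusted p = 0.646 and 0.0787).

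STIP1, known as HOP, which hands clients from HSP70 to HSP90, read 2348, 2494 and 2307 on the gedunin arrays, against 767 and 748 on DMSO 1 and 2, and rose by 1.65 ± 0.09. ST13, known as HIP, rose by 0.33 ± 0.09 (limma adjusted p = 0.0268), a call lost when any 1 of the 5 arrays was left out (limma adjusted p = 0.0552 to 0.184) and in the 6-array comparison (0.58, limma adjusted p = 0.394). STUB1, which encodes the ligase CHIP, had -0.20 ± 0.08 and was not called. None of the 3 measured genes of the heat shock factor list was called, at -0.060 ± 0.10 for HSF1, -0.12 ± 0.10 for HSF4 and -0.064 ± 0.10 for HSBP1.

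The 4 relatives outside the cytosol all rose in the 5-array comparison, against 8.24% of all genes. HSPA13, a small microsomal HSP70, rose most, with 594, 567 and 572 under gedunin, against 117 and 121 on DMSO 1 and 2 (2.27 ± 0.08). The mitochondrial HSP70 gene HSPA9 read 1400.2, 1442 and 1494 under gedunin, against 875 and 934 on DMSO 1 and 2, a rise of 0.68 ± 0.09. HYOU1, the HSP110 of the endoplasmic reticulum, read 1318, 1359 and 1301 on the gedunin arrays, against 854 and 871 on DMSO 1 and 2, and rose by 0.62 ± 0.08. HSPA5, the HSP70 of the same compartment, rose by 0.77 ± 0.11. In the 6-array comparison HSPA13 was called (2.54 ± 0.24), while HSPA9 (0.52, limma adjusted p = 0.256), HYOU1 (0.85, limma adjusted p = 0.170) and HSPA5 (0.91, limma adjusted p = 0.0756) were not.

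**Figure D4:**
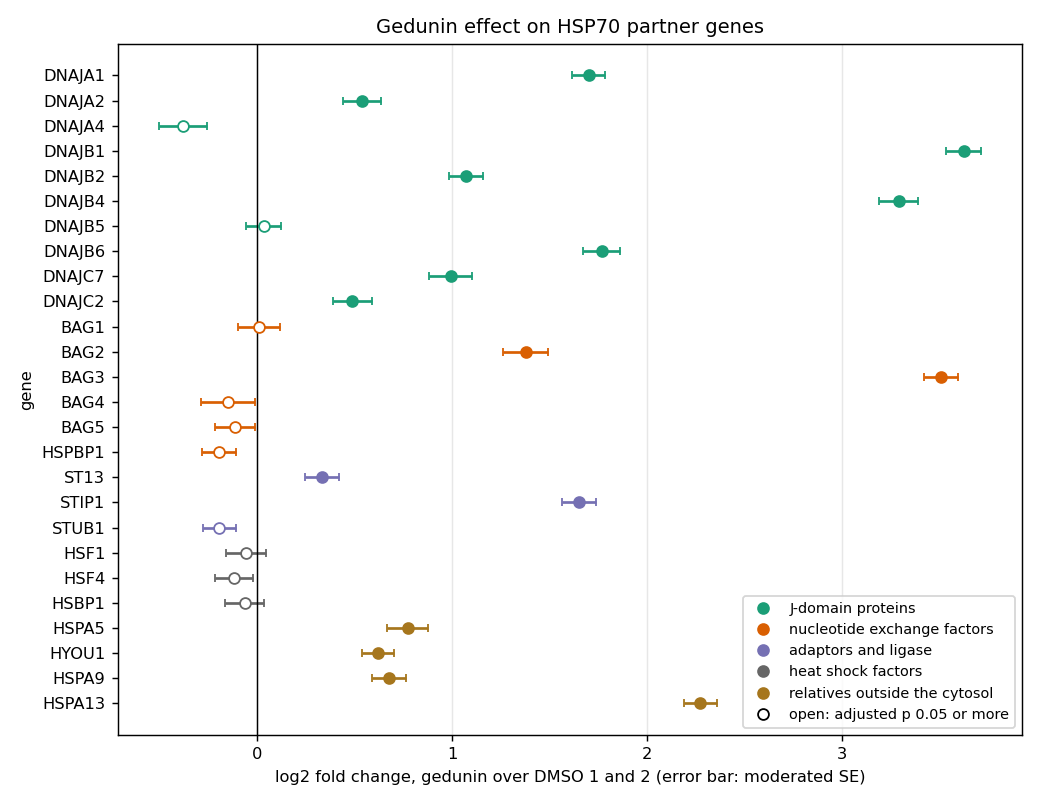
Log2 fold change of gedunin over DMSO 1 and 2 (x axis, with moderated standard errors) of the 26 measured partner and relative genes (rows), coloured by role; filled points passed an adjusted p of 0.05. The J-domain genes DNAJB1 and DNAJB4 and the exchange factor gene BAG3 lie above 3, and the heat shock factor genes lie near 0.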

How the data were processed

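RNA of 6 samples was measured on Affymetrix arrays. The deposited table gives 1 intensity per probe set and array, made by the authors with RMA (version not given), per the submitters' processing notes. Which arrays were processed together is not given in the sources used here. Values were on a linear scale, so log2 was taken. Groups came from the sample titles. Probe sets were joined to genes by a platform annotation of 2016, in which 19724 named 1 gene, 568 named several and 1923 were not listed. Entrez identifiers of 19707 matched RefSeq, and 0 symbols changed.

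Gedunin was compared with DMSO 1 and 2 by limma 3.58.1 (R 4.3.3; lmFit, eBayes without trend, no filter), over all 22215 probe sets, with Benjamini-Hochberg adjusted p-values called below 0.05. A gene was read from its probe set with the highest mean log2 over the 5 arrays. The members and lists, and the choice of arrays, were made with earlier results of these data known. All members were named, as were the partner lists and, for 4 members, the 3 nearest genes. The code was checked on simulated data. Alternatives covered the arrays used, normalization, variance model, filters, threshold, probe sets and scale. Sequences are from RefSeq (GRCh38.p14).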

Additional observations from a re-analysis of the deposited data

Results flagged for a closer look

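The array labelled DMSO 3 entered no main comparison, and 5 probe sets of the family read at least 2-fold higher on it than on the higher of DMSO 1 and 2. HSPA1A (200799_at) read 283 on it, against 18.2 and 27.4. HSPH1 read 1550.2 (208744_x_at) against 622 and 679, and 903 (206976_s_at) against 372 and 420.2. HSPA4L (205543_at) read 269.9 against 116 and 109.7. HSPA14 (219212_at) read 406 against 166 and 198. HSPA1B and HSPA1L stood the other way, with 47.1 on DMSO 3 against 601 and 566, and 27.1 against 126 and 158. DMSO 3 also differed in its prostate and leukocyte markers, and the part of cell type in these values was not tested.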

How the results depend on the processing

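Over 15 alternative settings, 239 of 245 member values kept their direction and their side of the threshold, 6 were no longer called and 0 turned. Of these 6, 5 came from counting DMSO 3 as a control (HSPA1A, HSPA1B, HSPA1L, HSPA14 and 1 probe set of HSPA8) and 1 from leaving out DMSO 1 (HSPA14). Of 233 values of called partner genes, 214 stayed so, 19 were no longer called and 0 turned. With DMSO 3 counted, 5 member genes, 7 partner genes and 312 of all probe sets were called, in place of 9, 16 and 3396. Centring on GAPDH and ACTB moved the median of all probe sets to -0.14 and called 5269 of them, of which 21.4% were higher in place of 48.2%, with 16 member probe sets still higher and 3 partner genes lower. With trend and robust settings 1 partner gene was lower. A threshold of 0.01, which is not among the 15 settings above, left 15 of 17 member probe sets and 8 of 10 member genes. HSPA14 (limma adjusted p = 0.0166) was no longer called there, and 1869 of all probe sets were. Dropping the _x_at and _s_at probe sets left 8 member probe sets of 7 genes, and all 8 were called. It removed every probe set of HSPH1, HSPA8 and HSPA2, so HSPA2, the member not called in the main fit, was not tested there. With fewer probe sets tested, 9 of 15 partner genes and 1586 of 11813 probe sets were called. Leaving out each of the 5 arrays in turn gave 15 to 16 member probe sets, 8 to 9 member genes, 14 to 15 partner genes higher and 0 to 1 lower, and 1805 to 3064 of all probe sets, the lowest counts coming without DMSO 1 (1805) or DMSO 2 (1835), where a single DMSO array is left and is assumed to vary like the gedunin arrays. With the replicate number as a block, 16 member probe sets and 2931 of all were called. Deviations of same-numbered arrays correlated at -0.033 and 0.039. The deviations of DMSO 1 and 2 from their mean mirror each other, so these correlations cannot decide whether the numbers mark pairs. The main fit did not use the numbers as pairs. Levels below the array median (1 probe set of HSPA6 and HSPA1A on DMSO 1 and 2, HSPA2 on the 6 arrays) limit the precision of those folds.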
